A study of Mus musculus with 8 samples.

Results

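Medullary thymic epithelial cells (mTECs) were compared with CD45+ thymic cells across all mouse miRNAs of a microarray. The comparison used the 3 mTEC and the 3 CD45+ arrays, chosen by their labels, of 8 arrays in the series, and the 1040 mouse miRNAs of 3688 features that the array carries by name. The cTEC arrays were left out of the contrast. The question was which miRNAs set the medullary epithelium apart from the blood-derived cells around it. Both groups came from female NOD wildtype mice aged 4 wk, with no treatment or transgene. Sorting took EpCAM-CD45+ cells for the CD45+ group, and CD45- cells positive for EpCAM and MHC class II and negative for Ly51 for the mTEC group. The thymi of 10 to 12 mice were pooled for cell isolation, so a replicate holds cells of pooled mice and not of 1 animal. The study's methods do not say whether each replicate came from a pool of its own. Replicates are called pools below. Neither sort separated mature from immature mTECs, or thymocytes from the other CD45+ cells of the thymus.

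A miRNA is a short RNA that guides the silencing complex to messenger RNAs, mainly by pairing through its seed, bases 2 to 8 from the 5′ end. miRNAs with the same seed form a family with overlapping targets, and several miRNAs are often cut from a common transcript, so that neighbouring hairpins can share their control. mTECs are the epithelial cells that present tissue-restricted self antigens to developing T cells, while the CD45+ fraction of a thymus holds mostly thymocytes.

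Values are scaled signals in arbitrary units: the scanner's background-subtracted signal divided by a factor per array, taken from the 75th percentile of those 120 miRNAs that every one of the 6 arrays measured well above background. A miRNA was tested when it was well above background on at least 2 of the 6 arrays, and fold changes were fitted with limma on log2 signals floored at 394.3. Of the 1040 miRNAs, 624 were well above background on no array and 112 on 1 array, which left 304 tested. Of these, 110 (36.2%) were called at an adjusted p under 0.05, 72 higher in mTECs (23.7%) and 38 lower (12.5%). For each of the 110, no mTEC array overlapped with a CD45+ array, and the sign was the same within both rows of the slide. Many miRNAs that were not called had no overlap either, so this alone does not set the calls apart. Among them were miR-107, miR-27a and miR-340-5p, the last with every array under the floor. At an unadjusted p under 0.05 there were 123. Differences of over 1 on the log2 scale made up 49 of the rises and 22 of the falls.

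The split between rises and falls turned on how the arrays were scaled. With the scaling used here the median log2 fold change over the 120 miRNAs measured on all 6 arrays was 0.40, the highest of 7 scalings. It was -0.89 when the 75th percentile was taken over every mouse probe. The same 304 miRNAs then gave 19 rises and 96 falls. Quantile normalization gave 41 and 96, the log2 values that the authors deposited gave 47 and 89, no scaling 20 and 45, the percentile over miRNAs measured on all 8 arrays 55 and 69, and centring on the median 61 and 35. Of the 110 calls, 83 kept their direction under all 7 scalings, which were 45 of the rises and every fall. In 27 rises the direction was lost under at least 1 scaling. Of the 110, 3 were called in the opposite direction with the percentile over every mouse probe. With quantile normalization, the deposited values and the percentile over 8 arrays, 1 each was called in the opposite direction. A call in the same direction under every scaling was made for 49 miRNAs, 17 higher and 32 lower, and these lead the account below. The 17 were miR-205, miR-203, the 5 miR-200 members, miR-182, miR-183, miR-96, miR-125a-5p, miR-125b-5p, miR-143, miR-145, miR-149, miR-194 and miR-375. The 32 were 4 miR-181 members, both arms of miR-142, 11 members of the miR-17-92 cluster and its paralogs (miR-106a, miR-106b, miR-93, miR-92a, miR-25, miR-20b, miR-20a, miR-19b, miR-19a, miR-18a and miR-17), miR-15b and miR-16, and miR-30e, miR-31, miR-128, miR-130b, miR-140*, miR-150, miR-223, miR-342-3p, miR-350, miR-361, miR-1949, miR-3069-3p and miR-3084.

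**Figure D1:**
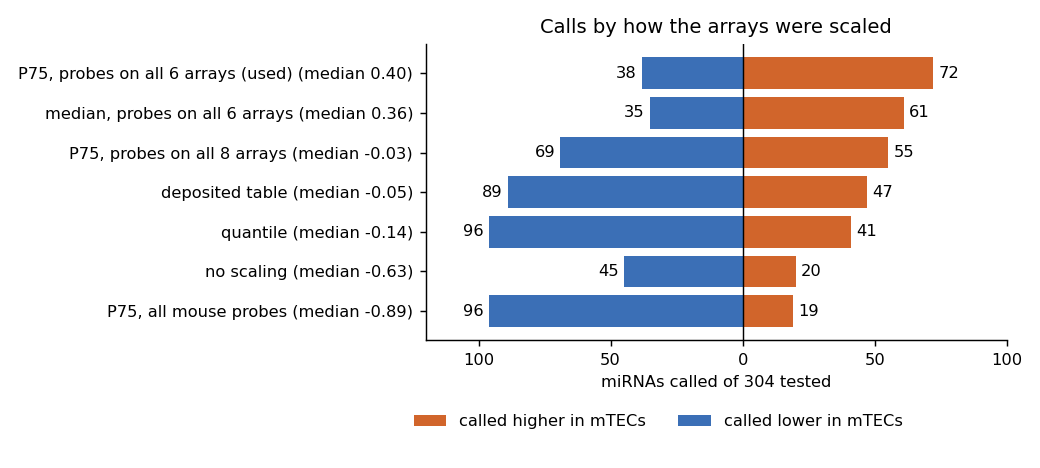
miRNAs called higher (right) and lower (left) in mTECs, of 304 tested with limma, for each of 7 ways to scale the arrays. The median log2 fold change over 120 miRNAs is given in brackets; the setting used here has 72 rises and 38 falls, and the percentile over every mouse probe gives 19 and 96.

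The mature sequences of the miRNAs that carried the contrast were taken from RefSeq (GRCm38.p6), which matched 223 of the 304 tested, and are printed 5′ to 3′ with the seed in capitals. miR-143, miR-145 and miR-375, also among the largest rises, are named without a sequence. The miR-200 family, known for holding epithelial cells in their epithelial state, is split between a pair of seeds, and miR-205 and miR-203, known from stratified epithelium, have seeds of their own.
miR-205: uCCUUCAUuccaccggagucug
miR-203: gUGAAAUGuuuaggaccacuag
miR-200b: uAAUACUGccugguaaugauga
miR-200c: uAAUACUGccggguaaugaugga
miR-429: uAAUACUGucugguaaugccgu
miR-200a: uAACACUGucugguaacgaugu
miR-141: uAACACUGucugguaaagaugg

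A further pair of seeds joined members of the miR-125 and the miR-99/100 families, which lie beside let-7 genes in the genome and were higher in mTECs.
miR-125b-5p: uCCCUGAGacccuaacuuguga
miR-125a-5p: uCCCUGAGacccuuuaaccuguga
miR-99a: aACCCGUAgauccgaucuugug
miR-100: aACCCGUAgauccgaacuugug

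The falls shown are 4 members of the miR-181 family, which tunes T cell receptor signalling in thymocytes, miR-142-3p, found throughout blood lineages, miR-128, and members of the miR-17 family, which drive proliferation and survival.
miR-181a: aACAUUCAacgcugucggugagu
miR-181b: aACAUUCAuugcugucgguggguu
miR-181c: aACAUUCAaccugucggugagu
miR-181d: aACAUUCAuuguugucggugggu
miR-142-3p: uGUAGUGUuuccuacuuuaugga
miR-128: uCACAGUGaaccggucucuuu
miR-17: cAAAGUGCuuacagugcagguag
miR-20a: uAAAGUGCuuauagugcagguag
miR-106a: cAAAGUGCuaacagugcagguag

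Apart from miR-31, the epithelial miRNAs were at or near background in CD45+ cells and bright in mTECs. In the list of stratified epithelium and sensory cluster miRNAs, 5 of 6 rose, where 23.7% of all tested did, and miR-31 fell. miR-205 lies on chromosome 1 at chr1:193507463-193507530 (GRCm38.p6, minus strand) and lies within the span of the lncRNA Mir205hg. Its scaled signal was 119, 100.3 and 104 in the 3 CD45+ pools and 18056, 20375 and 23305 in the 3 mTEC pools. The groups were far apart, and miR-205 was above background on 1 of the 3 CD45+ arrays. The fitted log2 fold change was 5.70 ± 0.10 (SE, n = 3 pools a group; adjusted p = 1.6e-06), which is understated because the CD45+ signals lie under the floor. Where values are set against each other below, the CD45+ pools come first and the mTEC pools second, each in the order of the replicate numbers. miR-200c measured 178, 166 and 142 in CD45+ cells and 14897, 14282 and 11339 in mTECs. Its neighbour miR-141, on the same strand of chromosome 6, measured 143, 106 and 140.3 against 9289, 6679.6 and 4152. The 3 mTEC values of miR-141 spread more than those of miR-200c, without reaching the CD45+ values. All 5 members of the miR-200 family rose, where 23.7% of all tested did, with a median log2 fold change of 4.20 (1.46 to 4.90 over the scalings), against 0.13 for all 304 tested (0.25 to 0.39 without mTEC replicate 1, 2 or 3).

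For 26 miRNAs, all 3 mTEC arrays but no CD45+ array were well above background, and 6 showed the reverse. For these a lower limit of the fold was set. Each dim array was taken at its own signal or at its lowest signal above background, whichever was higher. Every fold given as "at least", here and below, is a limit under the scaling used here only. The limits were not computed under the other scalings. The scaling used here gave the highest median log2 fold change of those compared, so limits for rises in mTECs can be smaller under others. miR-200b, from a cluster with miR-200a and miR-429 on chromosome 4, measured 134, 84.9 and 118 in CD45+ cells and 9466, 9194 and 7273 in mTECs, at least 68-fold higher. miR-200a and miR-429 were at least 57.4-fold and 29.9-fold higher. miR-203, which pushes keratinocytes to differentiate, measured 105, 83.1 and 117 against 6583, 6793 and 7476, at least 55-fold higher. Every CD45+ value of miR-200a, miR-200b, miR-429 and miR-203 lay under the floor, and no mTEC value did.

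miR-375, known from pancreatic islets and other endocrine and secretory epithelia, measured 46.7, 2.87 and 41.2 in CD45+ cells and 3293, 3276 and 2995 in mTECs, at least 25.2-fold higher. miR-182, of the cluster with miR-183 and miR-96 that is known from sensory epithelia, measured 57.3, 63.9 and 53.8 against 2344, 2436 and 2583, at least 19.4-fold higher. miR-183 and miR-96 were at least 9.43-fold and 8.67-fold higher. These 4 miRNAs were called higher under every scaling, and none had a CD45+ array above background.

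miR-143 and miR-145, which mark smooth muscle and other mesenchymal cells, were also among the 26. miR-143 measured 153, 89.2 and 94.5 in CD45+ cells and 6262, 5586 and 5228 in mTECs, at least 42.8-fold higher. miR-145 measured 61.9, 48.6 and 10.4 against 5025, 5268 and 5109, at least 40.7-fold higher. No other mesenchymal marker was called. Of 6 measured, miR-199a-3p, miR-199a-5p and miR-199b* were above background on none of the arrays, and miR-214 was above it on 2 mTEC arrays with 58.8, 779 and 205 in the 3 mTEC pools. Of the endothelial markers, miR-126-3p was 311, 205 and 292 in CD45+ cells and 912, 505 and 714 in mTECs, a difference of 0.80 ± 0.22 on the log2 scale (limma adjusted p = 0.04), whereas miR-126-5p was above background on none. The 3 CD45+ values of miR-126-3p lay under the floor, and it was called under 2 of the 7 scalings, over which its difference ran from 0.03 to 0.80. The call was lost without CD45+ replicate 1, 2 or 3 or mTEC replicate 3 (adjusted p up to 0.11), and the difference was 1.64 without mTEC replicate 2. The erythroid miR-451 and miR-486 were above background on none of the 6 arrays and miR-144 on 1 mTEC array. The part of mesenchymal or endothelial cells in these values was not tested, and in bulk samples fewer cells of a type and less RNA per cell cannot be told apart.

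The list of tissue-restricted miRNAs, 19 measured, took in miRNAs of muscle, liver, brain and endocrine tissue. Of these, 12 were tested, 3 were called higher and none lower, with a median log2 fold change of 0.13, against 0.13 over all tested miRNAs, of which 23.7% were called higher. The share of this list called higher was near that of all tested miRNAs. Its median was 0.28, 0.71 and 0.24 without mTEC replicate 1, 2 and 3. The 3 were miR-375, miR-192 and miR-194, which are known from gut, liver or endocrine epithelium. miR-194 measured 200.4, 174 and 176 in CD45+ cells and 1877, 1988 and 1875 in mTECs, which is 2.28 ± 0.042 on the log2 scale (limma adjusted p = 1.6e-06), while miR-192, from the same cluster on chromosome 19, was at least 6.47-fold higher. The muscle miRNA miR-206 and miR-215, which shares its seed with miR-192, were above background on the 3 mTEC arrays and no CD45+ array. miR-206 measured 116, 91.8 and 122 against 266, 512 and 355, at least 2.83-fold higher, and miR-215 was at least 3.29-fold higher. Neither was called (adjusted p = 0.45 and 0.41), and 2 of their 3 mTEC signals lay under the floor.

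The largest falls were of miRNAs known from lymphocytes. miR-181a, from a locus on chromosome 1 at chr1:137966455-137966541 (plus strand) and another on chromosome 2 within the span of Nr6a1, measured 14849, 14887 and 16035 in CD45+ cells and 2268, 1548 and 1773 in mTECs. The groups were well apart, at a log2 fold change of -3.05 ± 0.15 (adjusted p = 4.4e-05). miR-181b, whose hairpins neighbour both, measured 3077, 3149 and 3181 against 423, 411 and 502. miR-181c and miR-181d, neighbours on chromosome 8, fell by 1.20 and 1.22 on the log2 scale, with the mTEC arrays under the floor. All 4 miR-181 members were called lower under every scaling, where 32 of all 304 tested were.

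miR-150, a miRNA of mature lymphocytes that restrains Myb, measured 4744, 3829 and 3673 in CD45+ cells and 621, 525 and 514 in mTECs, a log2 fold change of -2.88 ± 0.13 (adjusted p = 3.3e-05). miR-142-3p, from chromosome 11 at chr11:87756864-87756927 (plus strand), measured 3336, 6023 and 4721 against 996, 780.3 and 515. It was the most uneven of these among the CD45+ pools, and its groups did not overlap (log2 fold change -2.64 ± 0.33, adjusted p = 0.0019). miR-128, whose hairpins lie within the spans of R3hdm1 on chromosome 1 and Arpp21 on chromosome 9, measured 2910.2, 3513 and 2938 in CD45+ cells and 317, 248 and 301 in mTECs. It fell by 2.98 on the log2 scale with every mTEC array under the floor. miR-223, a miRNA of myeloid cells, measured 1007, 979 and 925 against 200.1, 260.0 and 239.8, and fell by 1.30 (by 2.09 without mTEC replicate 2).

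As a group, 7 of the 9 haematopoietic miRNAs fell, where 12.5% of all tested did, 1 rose and 1 was not called, with a median log2 fold change of -1.67 (-2.98 to -0.54 over the scalings). Several of those that fell were still above background in mTECs. The mTEC mean of miR-142-3p was 16.3% of that in CD45+ cells, that of miR-150 was 13.6% and that of miR-181a 12.2%, with miR-142-3p, miR-150 and miR-181a above background on all 3 mTEC arrays. Whether CD45+ cells in the mTEC sort gave this signal was not tested. The exceptions were a pair induced by inflammatory signalling. miR-146a was higher in mTECs, 2428, 2151 and 2021 against 3874, 3184 and 3175 (log2 fold change 0.63 ± 0.11, adjusted p = 0.0085), but its direction was lost under other scalings. miR-155 measured 3961, 3323 and 2787 in CD45+ cells and 3959, 2828 and 2244 in mTECs, overlapping ranges with a log2 fold change of -0.18 ± 0.25 and an adjusted p of 0.63.

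**Figure D2:**
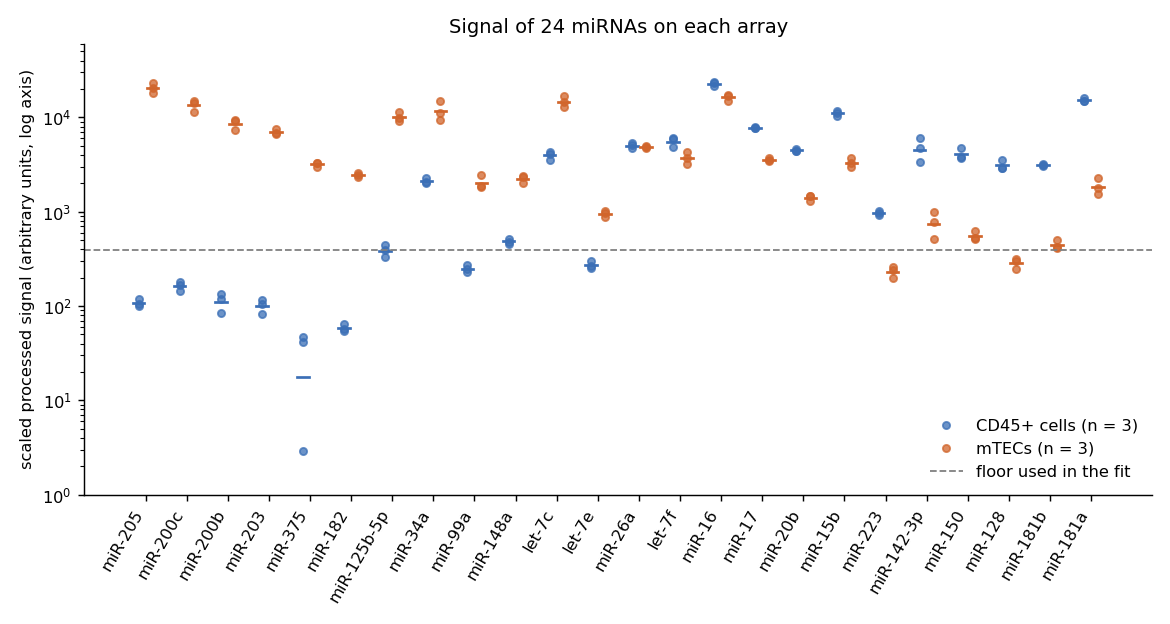
Scaled signal (log axis, arbitrary units) of 24 miRNAs on each of the 3 CD45+ and 3 mTEC arrays, with short bars for the geometric mean and a dashed line at the floor of 394.3. The epithelial miRNAs at the left are under the floor in CD45+ cells, miR-26a overlaps between the groups, and the blood miRNAs at the right are lower on every mTEC array than on any CD45+ array.

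The miR-17 family and its relatives fell together. All 6 measured members of the miR-17-92 cluster were lower in mTECs with a median log2 fold change of -1.17 (-2.63 to -1.17 over the scalings), as were all 3 of the miR-106b-25 cluster (median -1.10), where 12.5% of all tested miRNAs were called lower. Of the 4 in the miR-106a-363 cluster named here, miR-20b and miR-106a fell, while miR-18b and miR-363-3p lay under the floor and were not called. miR-20b measured 4406, 4605 and 4361 in CD45+ cells and 1455, 1456 and 1310.1 in mTECs, and miR-17 7805, 7817 and 7696 against 3529.7, 3451 and 3691. The pools of each group lay close to each other and the groups far apart. The log2 fold changes were -1.66 ± 0.06 (adjusted p = 1.4e-05) and -1.13 ± 0.043 (adjusted p = 1.6e-05). miR-92a and miR-25, which share a seed, fell by 1.51 and 1.42, and miR-19a and miR-106a by 1.41 and 1.30. The 6 tested miRNAs with the seed of miR-17 all fell, with log2 fold changes of -1.66 to -0.97. These mature sequences differ at few bases, and how far each probe also binds the others was not tested.

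miR-15b, which slows the cell cycle with miR-16, measured 11044, 11750.5 and 10352 in CD45+ cells and 2947, 3702 and 3274 in mTECs and fell by 1.74 (SE 0.10, adjusted p = 8.6e-05). Its neighbour miR-16, on chromosome 3 within the span of Smc4, also comes from a copy on chromosome 14, and measured 23194, 23564 and 21323 against 16881, 17334 and 14997. It fell by 0.47 (adjusted p = 0.0055). miR-1949 fell by 1.33, from 1716, 1517 and 1767 to 902, 602 and 536. All 3 falls were called under every scaling.

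Among the miRNAs measured on all 6 arrays, 45 rose, 23 fell and 52 were not called. The largest rise there was of miR-125b-5p, a regulator of progenitor cells in several tissues, at 447, 390.2 and 332 in CD45+ cells and 11291, 9126 and 9913 in mTECs. Its log2 fold change was 4.59 ± 0.10 (adjusted p = 1.9e-06), called under every scaling. miR-34a, a target of p53, measured 2294, 2016 and 2039 against 14758, 11204 and 9418 (log2 fold change 2.46 ± 0.18). miR-99a measured 275, 244 and 228 against 2435, 1853 and 1812, and miR-148a 481, 512 and 457 against 2004, 2416 and 2313. miR-1959 measured 569, 519.8 and 533 against 1888, 1728 and 2067, a log2 fold change of 1.81 ± 0.081 (adjusted p = 3.3e-05). miR-34a, miR-99a, miR-148a and miR-1959 kept their direction under all 7 scalings and missed the threshold under 1 or 2 of them. With miR-34a, the related miR-449a rose (at least 8.54-fold), while miR-449c, miR-34b-5p and miR-34c, above background on mTEC arrays alone, were not called, with lower limits of 4.26-fold, 3.17-fold and 3.35-fold. miR-449a was called under 4 of the 7 scalings. Its call was lost when any 1 of the 3 CD45+ arrays was left out. Its fitted value grew by over 1.5 times without mTEC replicate 2.

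Several of the largest rises on all 6 arrays were of GC-rich miRNAs. miR-762, on chromosome 7 within the span of Bcl7c, measured 3526, 2956 and 4142 in CD45+ cells and 16266, 19049 and 23956 in mTECs, and miR-1224 16784, 15673 and 19716 against 50239, 66945 and 81132. miR-149*, the passenger strand of miR-149, measured 2169, 2065 and 2399 against 6148, 6412 and 12327, with mTEC replicate 3 well above the other two. miR-762 was called under 6 of the 7 scalings, and miR-1224 and miR-149* under 5 each. The sequences of these miRNAs show the base composition.
miR-762: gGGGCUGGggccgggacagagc
miR-1224: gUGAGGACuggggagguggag
miR-149*: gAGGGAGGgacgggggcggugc

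Over the 87 miRNAs on all 6 arrays with a RefSeq sequence, the GC percent of the sequence and the log2 fold change without the floor had a Pearson r of 0.39. Among the 29 of highest GC (52.4% to 94.7%), 17 rose and 3 fell, with a median log2 fold change of 0.98. Among the 29 of lowest GC (31.8% to 43.5%), 8 rose and 10 fell, with a median of -0.28. The middle 29 (45.5% to 52.4%) had 8 rises and 8 falls, with a median of 0.15. Over all 120 miRNAs measured on the 6 arrays, with or without a sequence, 45 rose and 23 fell. Differences between replicates of a group ran with GC in 5 of 6 pairs of arrays. In mTECs r was 0.61 for replicate 3 minus replicate 1, 0.35 for replicate 3 minus replicate 2 and 0.29 for replicate 2 minus replicate 1. In CD45+ cells it was 0.39 for replicate 3 minus replicate 2, 0.32 for replicate 3 minus replicate 1 and -0.08 for replicate 2 minus replicate 1. The deposited table gave an r of 0.43 with the same miRNAs. These points share arrays, labelling and probe chemistry, and the part of base composition in the rises of miR-762, miR-1224 and miR-149* was not tested. The rises of miR-125b-5p, miR-34a, miR-99a and miR-148a were of miRNAs with 40.9% to 50% GC.

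**Figure D3:**
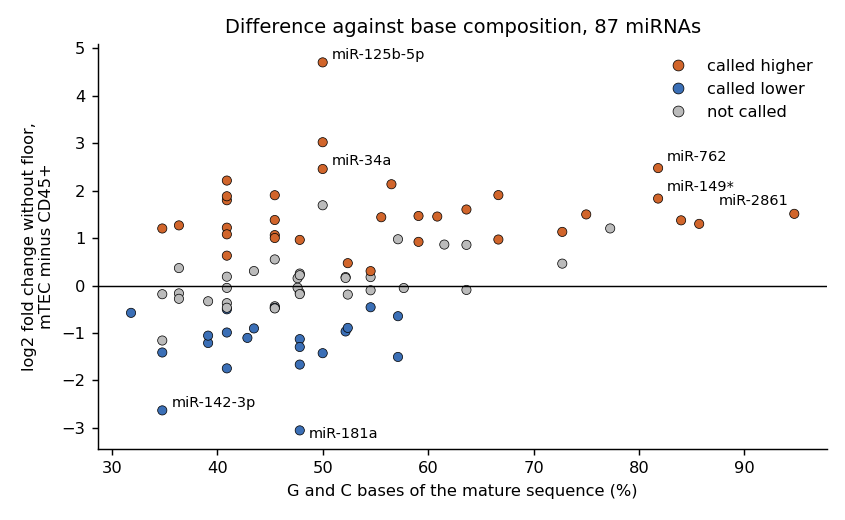
Log2 fold change (mTEC minus CD45+, no floor) against the percent of G and C bases of the mature sequence, for the 87 miRNAs measured on all 6 arrays that have a sequence, coloured by call. Pearson r over miRNAs was 0.39; the falls, such as miR-181a, lie in the left part of the plot, and miR-762 and miR-149* at 81.8%.

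Members of a seed family did not always move together. Of all 304 tested miRNAs, 23.7% were called higher and 12.5% lower. Among the 223 tested miRNAs with a RefSeq sequence, 29 seeds were shared by 2 or more. Of these, 6 had several rises and no fall, 4 had several falls and no rise, and 4 had calls in both directions. The 4 were those of let-7, miR-130, miR-30 and the miR-15/16 group. Their called members among the 223 are shown because they share a seed and were called apart. miR-30d, of the miR-30 family, is named without a sequence; it was called higher here and lost its direction under other scalings.
let-7b: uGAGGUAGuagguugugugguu
let-7c: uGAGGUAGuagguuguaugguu
let-7e: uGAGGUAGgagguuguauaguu
let-7d: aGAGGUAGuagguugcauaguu
let-7f: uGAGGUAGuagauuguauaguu
miR-130a: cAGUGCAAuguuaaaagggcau
miR-130b: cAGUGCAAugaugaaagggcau
miR-30a: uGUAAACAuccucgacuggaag
miR-30e: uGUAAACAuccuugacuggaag
miR-322: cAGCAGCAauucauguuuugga
miR-15b: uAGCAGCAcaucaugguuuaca
miR-16: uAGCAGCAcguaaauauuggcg

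In the let-7 family, which promotes differentiation and is held down in stem cells by Lin28, let-7b measured 3138, 3180.2 and 2703 in CD45+ cells and 13290.1, 10757 and 9880.3 in mTECs, and let-7c 4135, 4285 and 3545 against 16966, 14526 and 12752. let-7e measured 302, 251 and 267 against 869.6, 1018 and 959.9. let-7b, let-7c and let-7e rose, with log2 fold changes of 1.90, 1.88 and 1.26 (adjusted p = 0.0002, 0.0002 and 6.6e-05). let-7d measured 5735, 5532 and 4759 against 3327, 4179.9 and 3839, and let-7f 5844, 5990.0 and 4802 against 3714, 4281 and 3199. Both fell, by 0.50 and 0.58 (adjusted p = 0.022 and 0.028), and the 5 directions held under all 7 scalings. The calls did not: let-7b and let-7c were called under 5 of the 7, let-7e under 3, and let-7d and let-7f under 6. Both falls were lost without CD45+ replicate 1 or 2 or mTEC replicate 3 (adjusted p up to 0.096 and 0.11), and that of let-7f also without mTEC replicate 1. let-7a, let-7g, let-7i and miR-98 were not called. Thus 3 of the 9 members rose and 2 fell, where 23.7% and 12.5% of all tested miRNAs did. The median of the 9 members was 0.11 (0.34 without mTEC replicate 2), a sign that flips under other scalings. let-7b and let-7f differ at 3 bases, and let-7a differs from let-7c, let-7e and let-7f at 1 base each, and how far each probe also binds the other members was not tested.

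For let-7b and let-7f, and for miR-30a and miR-30e, every value lay above the floor, so that the factor of an array cancels in their ratio. In the other 2 pairs a member was held at the floor in a group, and their ratios change with the scaling. The log2 ratio of let-7b to let-7f was higher in mTECs by 2.48, with an SD over pools of 0.045 in CD45+ cells and 0.26 in mTECs (n = 3 each). miR-30a and miR-30e, which differ at 1 base, moved apart by 2.05. miR-30a measured 1203, 1497 and 1391 in CD45+ cells and 3033, 3204 and 2355 in mTECs, and miR-30e, within the span of Nfyc on chromosome 4, 2639.5, 3436 and 3325 against 1879, 1689 and 1214. miR-130a and miR-130b, which differ at 2 bases, moved apart by 3.01, with miR-130a at the floor in CD45+ cells and the mTEC signals of miR-130b under it, so that the value is understated. miR-130a, on chromosome 2, measured 149.7, 142 and 166 against 1002, 984 and 889, and miR-130b, on chromosome 16, 1308, 1332 and 1299.5 against 355, 348 and 337. miR-322 and miR-15b moved apart by 2.16, understated as well, since every CD45+ value of miR-322 lay under the floor. In these 4 pairs the ratios of the groups did not overlap. Each pair was chosen after its values were seen, as the highest and lowest called member of its seed, so the differences are a description and carry no test. On their own, the rises of miR-30a and miR-322 lost their direction under other scalings, and the fall of miR-30e was lost without CD45+ replicate 2 (adjusted p = 0.052).

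**Figure D4:**
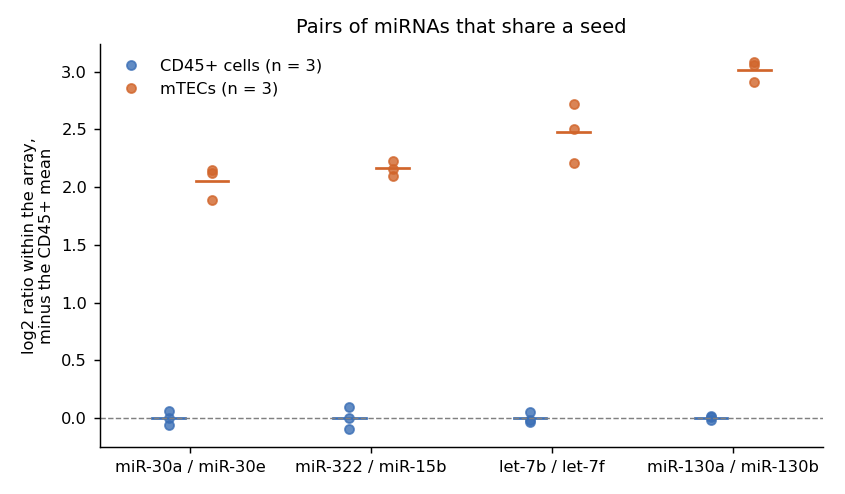
Log2 ratio of a pair of miRNAs with a common seed within each array, minus its mean over the CD45+ arrays, for 3 CD45+ and 3 mTEC arrays, with bars for the means. The mTEC ratios lie above the CD45+ ratios in all 4 pairs, by 2.05 for miR-30a over miR-30e to 3.01 for miR-130a over miR-130b.

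None of the clusters examined held calls in both directions, though in some a member that missed the threshold went against a called neighbour. By the positions of the deposited table, 41 groups of hairpins within 10 kb of each other held 2 or more tested miRNAs. Of these, 8 had several rises and no fall, and 8 had several falls and no rise. The shares called over all 304 tested miRNAs were 23.7% higher and 12.5% lower. A miRNA with several hairpins counts in each of its clusters, and miRNAs of a cluster often share a seed, so the 16 are not independent. The let-7 members called in opposite directions lay in different clusters. The risers let-7b and let-7c lie together on chromosome 15 within the span of the lncRNA Lncppara, let-7c also lies on chromosome 16 beside miR-99a, and let-7e on chromosome 17 beside miR-125a-5p, within the span of Spaca6. The fallers let-7d and let-7f lie together on chromosome 13 with let-7a. There let-7a went the other way, by 0.37, and narrowly missed the threshold (limma adjusted p = 0.052). let-7f also lies on chromosome X within the span of Huwe1, beside miR-98, which was not called. Of the neighbours of let-7e, miR-125a-5p rose and miR-99b was not called. miR-125a-5p measured 114, 72.8 and 47.9 in CD45+ cells and 1267, 1651 and 1680.0 in mTECs (at least 12-fold higher), and miR-100, beside a copy of let-7a on chromosome 9, measured 73.2, 88.6 and 23.7 against 1362, 1072 and 1059 (at least 9.1-fold higher). Of the 6 tested members of the miR-125, miR-99/100 and miR-10 families, 4 rose and none fell, where 23.7% of all tested rose, with a median log2 fold change of 1.74 (0.35 to 2.01 over the scalings, and 2.93 without mTEC replicate 2).

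**Figure D5:**
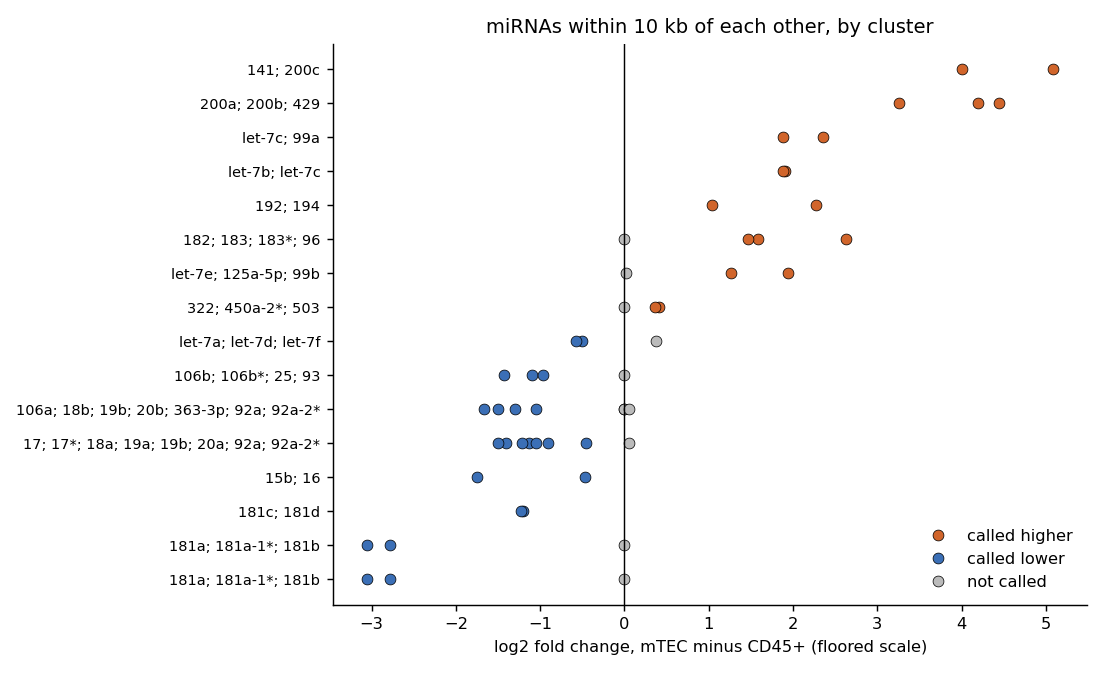
Log2 fold change (mTEC minus CD45+, floored scale) of each tested miRNA in the 16 genomic clusters with 2 or more calls, labelled without "miR-". No cluster held a called rise and a called fall, and values run from -3.05 for miR-181a to 5.09 for miR-200c.

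With the scaling used here, the 2 arms of a hairpin also ran the same way where both were called. Of all 304 tested miRNAs, 36.2% were called. Of 28 hairpins with both arms tested, 5 had both arms called in the same direction, none in opposite directions, 9 had 1 arm called and 14 had none. The 5 were miR-17, miR-140, miR-142, miR-149 and miR-712. Of the scalings, miR-712 was called under 1 and miR-712* under 2. The log2 fold change of miR-712* was 0.92 with the scaling used here. That value turned to -0.54 with the percentile over every mouse probe and -0.26 with no scaling, and stayed positive under the others. miR-140* fell by 1.43, from 1148, 1070.2 and 998 to 372, 220.4 and 237, and miR-140 by 0.19, a value that was -1.15 without mTEC replicate 2. miR-149 measured 195, 162 and 144 in CD45+ cells and 798, 1059 and 1016 in mTECs, a log2 fold change of 1.27 ± 0.12 called under every scaling, with the CD45+ values under the floor and a value of 2.33 without mTEC replicate 2. The calls of miR-140 and miR-712 were each lost when CD45+ replicate 1 or 2 was left out, among other arrays, and that of miR-17* without CD45+ replicate 2. Of 39 tested star strands, 8 rose and 2 fell, set against 72 and 38 of all 304 tested, and their median log2 fold change of 0.12 flips sign under other scalings and was 0.40 to 0.45 without mTEC replicate 1, 2 or 3.

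In the miR-23/24/27 clusters 1 of 5 tested rose (miR-24, by 0.30), in the miR-29 family 1 of 3 (miR-29c, by 0.56) and in the miR-30 family 2 of 5, with 1 fall. These counts are small, and 23.7% of all tested miRNAs rose. Their medians of 0.08, 0.19 and 0.31 flip sign under other scalings. With 1 array left out, the first ran from -0.05 (without CD45+ replicate 3) to 0.27 (without mTEC replicate 1), the second from -0.02 (without mTEC replicate 1) to 0.33 (without mTEC replicate 3), and the third was 0.15 without CD45+ replicate 3. The rise of miR-24 was called under 1 of the 7 scalings and that of miR-29c under 2, and both lost their direction under others. The call of miR-24 was lost without CD45+ replicate 2 or 3 or mTEC replicate 2 or 3, and that of miR-29c without CD45+ replicate 1 or 2, while its value was 1.24 without mTEC replicate 2. miR-29b, of the same family as miR-29c, had a log2 fold change of -1.16 and was not called (limma adjusted p = 0.097). miR-22 measured 3231, 2640.0 and 2623 in CD45+ cells and 7214, 5163 and 4828 in mTECs, a log2 fold change of 1.00 ± 0.18 (adjusted p = 0.0091). miR-146b measured 391, 369 and 381 against 956, 827 and 876 (1.13 ± 0.069), and miR-21, abundant in many tissues, 15590.2, 15815 and 13968 against 15308, 14059 and 11364, overlapping ranges with a lower mean in mTECs under all 7 scalings. The rises of miR-22 and miR-146b were called with the scaling used here, and their direction was lost under at least 1 other. miR-31, placed among the stratified epithelium markers, went against that list and fell by 0.68 under the scaling used here, from 681, 724 and 726 to 431, 376 and 434, a fall called under every scaling.

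For 14 of the 120 miRNAs measured on all 6 arrays, the 95% interval of the log2 fold change lay within 0.5 of 0 in both directions. miRNAs above background on fewer arrays are left out here, since values held at the floor have no spread. Of the 14, the narrowest was that of miR-26a, at 5298, 5059 and 4699.8 in CD45+ cells and 4961, 4903 and 4677 in mTECs, with an interval of -0.20 to 0.11. miR-107 (-0.31 to 0.01), miR-27b (-0.22 to 0.13), miR-30b (-0.19 to 0.18) and miR-191 (-0.01 to 0.37) followed. Each interval holds for this scaling only: all 5 were called lower under at least 1 other scaling, and relative to the median over the 120 miRNAs miR-26a stood at -0.45. miR-103, miR-26b and miR-425, close relatives or neighbours of these, and the pair miR-221 and miR-222 were not called here either. Of the 40 measured miRNAs of the imprinted Dlk1-Dio3 cluster, which is active in embryonic and placental tissue, 34 were above background on none of the 6 arrays, against 624 of all 1040, and the 3 tested were not called. miR-3072*, outside that list but in the same group of hairpins on chromosome 12, was tested and not called either.

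Of the 6 miRNAs above background on CD45+ arrays alone, miR-181a-1*, the passenger strand of miR-181a, measured 298, 334 and 231 in CD45+ cells and 26.2, -48 and 62.8 in mTECs, where a value below 0 means a spot dimmer than its background, at least 1.42-fold higher in CD45+ cells. miR-132 was at least 1.4-fold and miR-363-3p at least 1.1-fold higher. For miR-324-5p, miR-296-3p and miR-1843-3p no fold is given, since the lower limit was under 1. All 6 lay under the floor on every array and were not called here.

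The arrays had 169 to 229 miRNAs above background in CD45+ cells and 236 to 325 in mTECs, with 5 spots a miRNA and no saturated spot. Over the tested miRNAs the log2 signals correlated at r = 0.997 between CD45+ replicates, at 0.956 to 0.982 between mTEC replicates and at 0.777 to 0.814 between the groups. mTEC replicate 2 was the dimmest and set the floor: without it, 182 miRNAs were called, 135 higher and 47 lower, and 109 of the 110 calls were kept. The fitted value moved by over 1.5 times for 30 of the 110, of which 29 became larger. The log2 fold change was then 3.07 for miR-125a-5p, 2.78 for miR-100, 2.68 for miR-96, 2.66 for miR-183, 2.39 for miR-130a, 2.19 for miR-192 and 1.08 for miR-322. Among the falls it was -1.72 for miR-342-3p, -1.23 for miR-3069-3p and -1.10 for miR-350. Leaving it out changed the floor and the number of arrays together. Without CD45+ replicate 3 it moved that far for 2, miR-24 and miR-140, and without any of the other 4 arrays for none. Of the 110 calls, 87 were kept with each of the 6 arrays left out in turn.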

How the data were processed

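The 3 CD45+ and 3 mTEC preparations were hybridized in Cy3 alone to arrays of 1 slide with 5 spots per miRNA. The authors deposited scanner files that give each spot's intensity, raw and background-subtracted (Feature Extraction 10.7.3.1 in the file headers), and a table of log2 intensity, quantile normalized, with their own comparisons, which were not used. The submitters' notes name limma; probe summarization is not given in the sources used here. The study's methods do not say whether the replicates of a group were separate pools, and nothing says how they were spread over sorting days. The p-values thus measure the spread between these replicates only, whatever its source.

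Values start from the processed intensity. Outlier spots (1.09% to 1.85%) were left out, each array was scaled on the 75th percentile of the 120 miRNAs well above background (most of their spots by the scanner's flag) on all 6 arrays, and the floor, the highest of the 6 lowest signals above background, was applied before log2 and the mean over spots. Between 14.2% and 26.9% of mouse spots on the 6 arrays had a processed intensity of 0 or less, so folds against dim groups are understated. limma 3.58.1 in R 4.3.3 (lmFit, eBayes, prior df 1.15, residual df 4, Benjamini-Hochberg over 304 miRNAs) gave the tests, and 34 miRNAs at the floor on all 6 arrays entered as not different. The steps were tested on simulated data.

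miRNAs were named by rule: the 10 largest rises and falls on all 6 arrays without overlap, up to 8 per direction above background in 1 group alone by lower limit, and, of miRNAs on all 6 arrays, the 5 tightest intervals within 0.5 of 0. List members, seed families and clusters are further names. The members and lists were chosen with earlier results of these data known. Alternatives were other scalings, floors, filters, spot summaries, background correction (normexp, offset 50) and models, blocks by replicate and slide row, and each array left out; the scaling over all 8 arrays' shared miRNAs and the median centring were chosen after seeing the data. The main fit did not pair samples by replicate number. Deviations of same-numbered arrays correlated at 0.030, -0.021 and 0.091, and those of differently numbered arrays at -0.24 to 0.22. With so few arrays these values cannot decide whether same-numbered samples came from the same thymi.

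Sequences, hairpin positions and gene spans are from RefSeq (GRCm38.p6), matched by name and complementarity to the probe (the whole mature sequence for 217 of 223). Clusters use the deposited positions, which name no build.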

Additional observations from a re-analysis of the deposited data

Results flagged for a closer look

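The array carried 2648 features outside the mouse table, which the comparison did not use. Of these, 215 were well above background on all 6 arrays, 40 on the 3 mTEC arrays and no CD45+ array, and 2 the other way. None of 462 negative control spots on the 6 arrays was well above background. These features carry no mouse miRNA name in the table used here, so no identity is given.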

How the results depend on the processing

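Of 922 values of the 39 named miRNAs under the alternatives, 858 kept their direction and side of the threshold, 16 lost the call, 43 gained one and 5 reversed. The reversals were all of miR-191, at -1.28 (75th percentile over all mouse probes), -0.32 (quantile), -0.51 (deposited table) and -0.44 (both scalings over 8 arrays). The 110 calls became 65 with no scaling, 186 with normexp and 201 with the lowest floor. The 72 rises became 19 with all mouse probes, 41 with quantile, 20 with no scaling, 47 with the deposited table, 155 with normexp, 153 with the lowest floor and 29 with floor and scaling over 8 arrays. The 38 falls became 96 with all mouse probes, 96 with quantile, 89 with the deposited table, 69 with the percentile over 8 arrays (chosen after seeing the data) and 24 when only miRNAs on all 6 arrays were tested. The miR-200 median of 4.20 was 4.90 with quantile, 4.53 with no scaling, 1.46 with the deposited table, 4.83 with normexp, 6.20 with the lowest floor and 2.72 with floor and scaling over 8 arrays. The haematopoietic median of -1.67 was -2.98 with all mouse probes, -2.78 with quantile, -2.95 with no scaling, -0.54 with the deposited table, -1.38 with normexp, -2.19 with the lowest floor, -0.86 with floor and scaling over 8 arrays, -2.64 with miRNAs on all 6 arrays, -2.29 with the percentile over 8 arrays and -1.56 with median centring. The cause of these shifts was not tested beyond the changed floor, scaling and number of miRNAs.

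Leaving out each array in turn gave 90 to 182 calls, 58 to 135 rises and 31 to 47 falls, a miR-200 median of 4.10 to 5.39 and a haematopoietic median of -2.20 to -1.57. The highest counts came without mTEC replicate 2, whose signals were dimmest and limit what lies above the floor. A replicate block gave 101 calls (65 higher, 36 lower), 99 of them among the 110, and the slide row as a term 101. Pairing by number rests on the numbers alone.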
